A study of Mus musculus with 30 samples.

Results

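The genes of cell cycle progression and DNA replication were examined in mouse liver as 44 named genes, chosen by symbol: the transcription factors of the cycle, the replicative helicase and its loaders, enzymes of deoxynucleotide supply, cyclins and cyclin-dependent kinases, mitotic kinases, kinetochore and spindle proteins, and the inhibitor Cdkn1a. Of 14555 genes listed at any age, the PND1 and PND21 tables hold 43 of the 44 among 14259 genes, and the PND42 table holds 29 among 13091. Cdt1 was not analysed here at any age, and Ccnb1, Cdc20, Cdc6, Plk1, Aurka, Aurkb, Bub1, Bub1b, Kif20a, Foxm1, Ube2c, Tpx2, Nusap1 and Prc1 were not analysed here at PND42. The study sets livers of offspring with cadmium exposure in gestation against livers of offspring without it. Liver RNA of CD-1 mice, an outbred stock, was sequenced from unexposed controls and from animals exposed during gestation to 500 ppb cadmium chloride, on postnatal days (PND) 1, 21 and 42. The 30 libraries comprise 4 control and 4 exposed females at PND1, 3 and 3 females at PND21, and at PND42 4 and 4 females and 4 and 4 males. Males were sampled at PND42 only. The labels name no litters, so the p-values below measure the spread between these samples only.

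A cell commits to division when cyclin D kinases, and then cyclin E with Cdk2, release E2F factors from the retinoblastoma proteins, which turns on genes for helicase loading, DNA synthesis and nucleotide supply. Later in the cycle Mybl2 and Foxm1, with the MuvB complex, switch on the genes of mitosis, while Cdkn1a, a p53 target also called p21, inhibits the cyclin-dependent kinases. The liver of a newborn mouse still makes blood cells and its hepatocytes divide, whereas most hepatocytes of the weaned animal are quiescent and can re-enter the cycle after tissue loss.

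The start regions of 5 members are shown because they carry the letters through which the replication genes and the mitotic genes are known to differ, and the values below are given along the same division. Each line is the 160 bases before the RefSeq transcription start on GRCm38.p6, 5' to 3' along the gene, with motif letters in capitals. Mcm5 and Mcm6 are subunits of the replicative helicase, Cdk1 is the kinase that drives entry into mitosis, Cdc20 activates the anaphase-promoting complex, and Kif11 is the motor that separates the spindle poles.
Mcm5 (chr8:75109349-75109508, + strand): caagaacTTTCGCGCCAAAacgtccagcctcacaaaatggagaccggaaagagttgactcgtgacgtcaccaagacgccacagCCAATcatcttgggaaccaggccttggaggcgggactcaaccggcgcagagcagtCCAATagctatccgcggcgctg
Mcm6 (chr1:128359706-128359865, - strand): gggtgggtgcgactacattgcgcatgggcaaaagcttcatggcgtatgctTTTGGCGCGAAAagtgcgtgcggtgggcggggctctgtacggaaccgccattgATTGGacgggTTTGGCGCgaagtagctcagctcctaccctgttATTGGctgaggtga
Cdk1 (chr10:69352913-69353072, - strand): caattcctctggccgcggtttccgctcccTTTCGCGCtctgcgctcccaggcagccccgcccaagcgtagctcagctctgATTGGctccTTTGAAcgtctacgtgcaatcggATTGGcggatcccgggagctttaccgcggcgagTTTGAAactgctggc
Cdc20 (chr4:118437344-118437503, - strand): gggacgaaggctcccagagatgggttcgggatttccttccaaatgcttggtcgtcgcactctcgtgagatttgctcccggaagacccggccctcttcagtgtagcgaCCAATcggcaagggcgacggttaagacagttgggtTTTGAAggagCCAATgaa
Kif11 (chr19:37376222-37376381, + strand): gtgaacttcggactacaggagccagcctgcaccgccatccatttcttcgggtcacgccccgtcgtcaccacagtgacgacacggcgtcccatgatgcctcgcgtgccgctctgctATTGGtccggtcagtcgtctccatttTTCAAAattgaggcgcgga

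The following 3 kinds of letters were searched on both strands of each 300-base window, from 250 bases before to 50 after the start: E2F letters TTTCCCGC, TTTCGCGC, TTTGCCGC or TTTGGCGC, the cell cycle homology region (CHR) TTTGAA, and the NF-Y letters CCAAT. E2F letters on opposite strands can overlap each other, as they do in the Mcm5 line near its 5' end and in the Mcm6 line at 110 and 106 bases before the start. The Mcm6 line holds a further E2F match at 47 bases before the start. In the Cdk1 line, an E2F match lies 131 bases and CHR matches lie 71 and 15 bases before the start. In the Cdc20 and Kif11 lines, CHR matches lie 18 and 19 bases before the start, with CCAAT letters at 53 and 8 bases in the former and 45 in the latter.

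RefSeq windows were given for 36 of the 44 members (39 windows), all except Mcm4, Ccna2, Ccnd1, Ccne2, Aurkb, Foxm1, Kif20a and Tpx2. E2F letters were in the windows of 8 of these 36 members (22.2%), against 4.38% of the 10770 genes of the PND1 and PND21 tables with a window and 2.6% of all 27025 genes with one. CHR letters were in 16 (44.4%), against 14.8% and 20.2%, and CCAAT letters in 27 (75.0%), against 42.7% and 41.1%. Both CHR and CCAAT letters were in 16 members (44.4%), against 6.06% and 7.97%. Split by role, the 12 members of helicase loading, the fork and nucleotide supply with a window held E2F letters in 6, CHR letters in 2 and CCAAT letters in 9. The 18 members of mitosis with a window held E2F letters in 1, CHR letters in 13 and CCAAT letters in 16. A match is a description of these letters, not a site or a cause.

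Read totals were 24.4 to 27.8 M reads in PND1 controls and 25.4 to 29.6 M in PND1 exposed animals, 22.0 to 24.6 and 24.8 to 28.3 M at PND21, and 27.7 to 40.1 M at PND42. Each exposed PND21 library was deeper than each PND21 control. Levels below are normalised read counts, that is read counts divided by a library size factor. PND1 and PND21 share 1 scaling and PND42 has its own. Differences are on the log2(normalised count + 1) scale with their standard error, and the adjusted p is from limma with Benjamini-Hochberg adjustment over all genes tested. A gene counts as called where that p is under 0.05. At PND1, Control 2 and Exposed 3 stand apart for these genes: Control 2 was the lowest control in 40 of the 43 members and Exposed 3 the lowest exposed library in 42. Results that rest on PND1 are given with and without both where this changes them. At PND42, the column of 1 female control, called unnumbered below, carries a tag that the labels give to a PND21 control, and 3 male control columns, called unnumbered a, b and c, match their group but no labelled animal. Xist levels matched the labelled sex in 30 of 30 libraries.

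In PND1 control liver the members were far from equal in level. Per kb of annotated exon, which allows genes to be compared, Rrm2 (the small subunit of ribonucleotide reductase) was highest, at a mean of 1144 normalised counts per kb, followed by Mki67 (the Ki-67 protein that coats mitotic chromosomes) at 1027, Pcna (the sliding clamp of DNA polymerases) at 739 and Ube2c (the ubiquitin-conjugating enzyme of the anaphase-promoting complex) at 712. The lowest were Bub1 (a spindle checkpoint kinase) at 90.2, Cenpf (a kinetochore protein) at 68.2 and Foxm1 at 66.2 per kb. By PND21 the order had changed in controls: Ccnd1 (cyclin D1) led at 253 per kb, then Pcna at 157.8, Cdkn1a at 127 and Mcm7 (another helicase subunit) at 127. The last 2 of these lie within the spread of the 3 controls, with SDs of 151.3 on a mean of 453 normalised counts for Cdkn1a and of 94.9 on 564 for Mcm7.

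**Figure D1:**
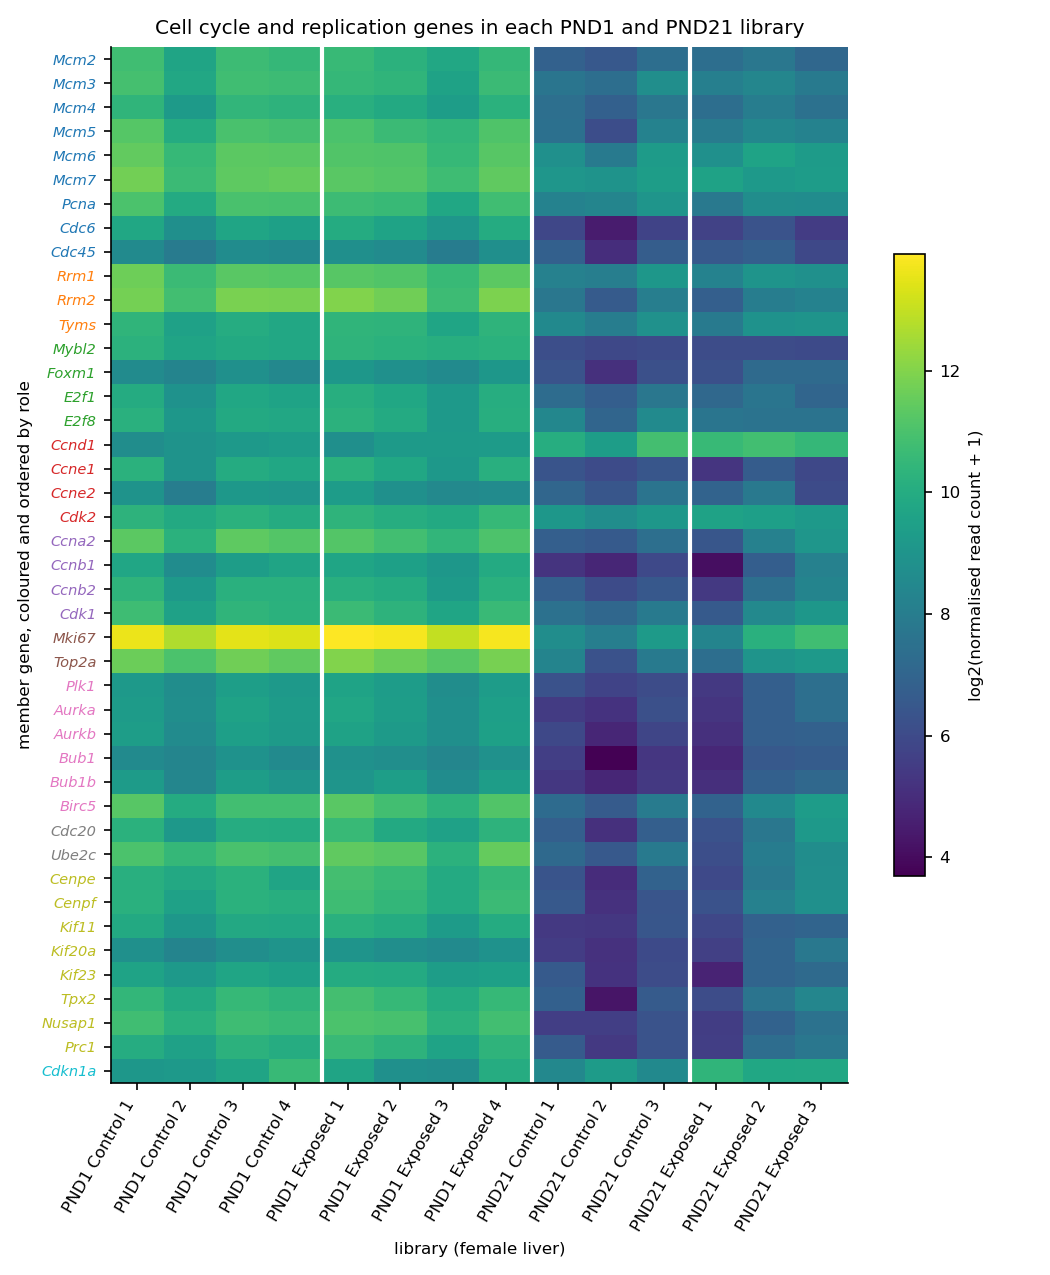
Level of each of 43 members (rows, name coloured by role) in each of 14 female PND1 and PND21 libraries (columns), as log2(normalised read count + 1) by colour. The 8 PND1 columns are brighter than the 6 PND21 columns in nearly all rows, Ccnd1 runs the other way, Cdkn1a is mixed, and PND1 Control 2 and Exposed 3 are the darkest columns of their groups.

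Nearly the whole group fell between PND1 and PND21 in control females. Of 43 members, 41 fell, Ccnd1 rose and Cdkn1a was not called. Without PND1 Control 2 and Exposed 3, 42 fell and 1 rose, with a median of -3.74. The share that fell, 95.3%, compares with 28.3% of all genes tested, and the 1 that rose compares with 27.7%. The median difference over the members was -3.51 against 0.01 over all genes, with a range of -4.75 to 1.05. In the 41 members that fell, each PND21 control lay below each PND1 control, as in 27.9% of all genes. In bulk liver, fewer dividing cells and less RNA of these genes per cell cannot be told apart.

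Among the transcription factors, Mybl2, the B-Myb subunit that directs the MuvB complex to late cell cycle genes, had the lowest p of the members. Its levels were 1227, 803, 945 and 918 normalised counts in PND1 controls 1 to 4 and 70.0, 58.5 and 63.7 in PND21 controls 1 to 3. No library of either age came near the other, and Mybl2 fell by a factor of 14.8 (-3.89 ± 0.15 log2, adjusted p = 1.75e-10). Foxm1, which switches on mitotic genes, fell by 2.70 log2, and E2f1, an activator of replication genes, by 2.30. E2f8, an E2F that represses these genes late in S phase, differed by -1.75 ± 0.36 (adjusted p = 0.00081). All 4 transcription factors fell, with a median of -2.50.

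The helicase loaders and fork proteins all fell, with a smaller median difference (-2.61) than that of the kinetochore and spindle members (-3.92). The difference between the roles was not tested. Mcm2, a helicase subunit, stood at 1753, 799.8, 1652 and 1462 normalised counts in PND1 controls and 115, 90.4 and 165 in PND21 controls, a difference of -3.49 ± 0.28 (adjusted p = 1.5e-07). Control 2 was the lowest library at each age, and the ages did not overlap. Pcna stood at 2099.7, 981, 2030.1 and 1982 in PND1 controls and 301, 322 and 514 in PND21 controls, and fell by a factor of 4.61 (adjusted p = 5.47e-05). Cdc6, which loads the helicase at origins, fell most in this role (-4.08 ± 0.35, adjusted p = 3.16e-07), and Mcm7 least (-2.19 ± 0.23, adjusted p = 1.62e-06). In nucleotide supply the spread was wider: Rrm2 differed by -4.11, its partner Rrm1 by -2.76 ± 0.29 (adjusted p = 1.95e-06) and thymidylate synthase, Tyms, by -1.46, each of them called.

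The 3 deepest falls, of Nusap1, Mki67 and Tpx2, were in genes of mitosis. Mki67 had 12550.0, 6601, 11605 and 10562 normalised counts in PND1 controls 1 to 4 and 414, 269.8 and 615 in PND21 controls 1 to 3, lower by a factor of 24.4 (-4.61 ± 0.48 log2, adjusted p = 3.53e-06). Top2a, the topoisomerase that untangles sister chromatids, had 3148, 2093, 3342 and 2733 in PND1 controls and 312, 77.1 and 242 in PND21 controls (-3.94 ± 0.47 log2, adjusted p = 1.08e-05). For both genes Control 2 was the lowest of its group at each age and the ages lay well apart. Nusap1, a spindle protein, differed most (-4.75 ± 0.36, a factor of 27.0, adjusted p = 1.34e-07), and Tpx2, which activates Aurka on the spindle, by -4.39. Kif11 differed by -3.95 ± 0.33 (adjusted p = 2.12e-07). The 8 kinetochore, spindle and cytokinesis members had a median of -3.92 and all fell. The 4 cyclin A, cyclin B and Cdk1 genes had a median of -3.79, the 6 mitotic kinase and checkpoint genes -3.64, with Bub1b at -3.86 ± 0.41 (adjusted p = 2.91e-06) and the chromosomal passenger kinase Aurkb at -3.67 ± 0.40 (adjusted p = 3.3e-06). Cdc20 and Ube2c, which carry the cell through anaphase, differed by -3.61 and -3.62, and both fell.

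Other members of these roles gave the same separation by library. Cdk1 stood at 1722, 746, 1349 and 1203 normalised counts in PND1 controls and 181, 138 and 237 in PND21 controls, and Ccna2, the cyclin A2 that carries Cdk1 and Cdk2 through S phase, at 2569, 1186, 2634 and 2299 in PND1 controls and 111, 95.7 and 172 in PND21 controls. Plk1, a kinase that acts from mitotic entry to cytokinesis, stood at 596, 421, 691 and 604 in PND1 controls and 75.9, 53.2 and 66.5 in PND21 controls. The ages lay apart in all 3 genes, with Control 2 lowest at PND21 in each. Foxm1 stood at 393, 317, 457 and 356 in PND1 controls and 77.3, 33.2 and 72.0 in PND21 controls, and Rrm2 at 3495, 1816, 3766 and 3606 in PND1 controls and 212, 97.0 and 265 in PND21 controls. Cdc20 stood at 1201, 558, 1032 and 1017 in PND1 controls and 111, 33.2 and 109 in PND21 controls. These 3 genes did not overlap between ages either. Cdk1 differed by -2.72, Ccna2 by -4.07 and Plk1 by -3.12, each called. Birc5, Bub1, Aurka, Ccnb1, Ccnb2, Cenpe, Cenpf, Kif20a, Kif23, Prc1, Mcm3, Mcm4, Mcm5, Mcm6 and Cdc45 also fell, by 2.26 to 4.05 log2.

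The G1 cyclins went in opposite directions. Ccne1, the cyclin E1 partner of Cdk2, fell by 3.45 ± 0.35 log2 (adjusted p = 1.82e-06), Ccne2 by 1.75 and Cdk2 itself by 1.13. Ccnd1 went the other way, from 415, 498, 578 and 645 normalised counts in PND1 controls to 1069, 662 and 1839 in PND21 controls. Its ages did not overlap, with PND21 Control 2 closest to the PND1 range, and Ccnd1 rose by 1.05 ± 0.27 (adjusted p = 0.00372). Scaled by read totals, which moves the median of all genes to -0.50, and the calls over all genes from 3944 higher and 4041 lower to 1784 and 6863, the Ccnd1 difference was 0.54 and was not called (adjusted p = 0.0923). Cdkn1a had 553, 591, 818 and 1512 normalised counts in PND1 controls and 357, 627 and 374 in PND21 controls. PND1 Control 4 was far above the other PND1 controls, and PND21 Control 2 overlapped the PND1 range. The Cdkn1a difference of -0.86 ± 0.38 was not called (adjusted p = 0.0645). It was called lower without PND1 Control 2 and Exposed 3 (-1.01, adjusted p = 0.0457), without PND1 Control 1 alone (adjusted p = 0.0397), without PND1 Control 2 alone (0.0496) and without PND21 Control 2 (0.0375), and under scaling by totals (-1.38, 0.00677) or by upper quartile (adjusted p = 0.0346).

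A further 4 lists of the same pathway were compared over the same libraries, where 28.3% of all genes fell and 27.7% rose. Of 39 other replication genes, 36 fell, with a median of -1.86. Those of lowest p were Tipin, of the fork protection complex (-2.39, adjusted p = 1.52e-07), Dut, which clears dUTP (-2.28), the primase-polymerase subunit Pola1 (-2.40) and DNA ligase Lig1 (-3.34). Of 57 other mitosis genes, 55 fell and 0 rose by limma, with a median of -3.23, led by the phosphatase Cdc25b (-4.93, adjusted p = 4.92e-08) and the condensin subunit Ncapd2 (-3.29). Of 20 genes of G1 and its regulators, 11 fell and 0 rose by limma, with a median of -0.60. E2f2, an activating E2F, differed by -5.02 and Ccnd3, cyclin D3, by -1.70, opposite in sign to Ccnd1. Of 18 inhibitors and p53 targets, 8 fell and 1 rose, with a median of -0.49. The kinase inhibitors Cdkn1c (-3.16) and Cdkn2d (-3.25) fell, as did the p53 target Gadd45a (-3.46), and the 1 that rose was Bax, which promotes apoptosis (0.57).

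Markers of blood cell formation moved with the members. All 19 tested of 20 erythroid markers fell (median -5.73; Hbb-bs -3.83, Ermap -7.33, Kel -6.92), and their summed level was 243375 to 400230.0 normalised counts in PND1 controls and 27980.0 to 86292 in PND21 controls. All 11 neutrophil precursor markers fell (median -7.30, Elane -5.92), with a sum of 41673 to 49441 and then 298 to 442, and Ctsg, Fcnb and Ms4a3 were at 0 in at least 1 PND21 library. So did 10 of 10 B-cell markers (median -4.00, Cd79a -3.97), with Igll1 at 0 in 2 PND21 libraries, and 10 of 10 megakaryocyte markers (median -4.34, Pf4 -4.53). Of 11 hepatocyte markers, 7 rose and 0 fell by limma (median 0.94, Alb 1.12, Ttr 1.62), and their sum was 1.54 to 2.76 M and then 2.42 to 5.15 M. Of 9 Kupffer cell markers 7 fell, with Marco (-2.76) and Adgre1 (-1.36) of lowest p. Of 12 stellate and matrix markers 1 rose (Dcn 1.38) and 2 fell (Col5a1 -0.90, Pdgfrb -0.58), and of 10 endothelial markers 2 rose (Clec4g 1.23 the most) and 5 fell (Cdh5 -0.75 of lowest p). Of 7 cholangiocyte markers 2 fell (Tspan8 -5.73, Epcam -2.21), of 5 mesothelial markers 1 fell (Upk3b -3.15), and the 1 exocrine pancreas marker tested, Cela1, rose (1.55). Of 7 mitochondrial genes 2 rose, and of the nuclear RNAs Malat1 and Neat1 0 were called by limma (0.18 and 0.35). Over all genes 27.7% were called higher and 28.3% lower between these ages, so marker counts near those shares do not show a shift of that cell type. The members summed to 39785 to 72281 normalised counts in PND1 controls and 5670.1 to 11092 in PND21 controls. Age and blood cell content change together in this design and cannot be told apart. With each library's mean erythroid level as a covariate, limma called 0 of the 43 members and 10 of all 14259 genes, 5 members had an unadjusted p under 0.05, and the members' median was 0.76. The share of all genes at that unadjusted p in this fit is not given here. Because the erythroid level moves with age, this fit cannot settle the sign of a single member. By limma Mybl2 was at -3.05 (adjusted p = 0.152), Mcm2 at -1.19 (0.707), Mki67 at 2.08 (0.588) and Pcna at 2.53 (0.331), none of them called. Within PND21 controls, Control 2 had the lowest member sum, 5670.1, and the highest erythroid sum, 86292, most of it from the globin Hba-a1 (62523 normalised counts). Other markers of the list did not all follow that sum: Klf1, an erythroid transcription factor, had 137, 38.5 and 97.0 in controls 1 to 3, lowest in Control 2, as were Gata1 and Rhag.

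**Figure D2:**
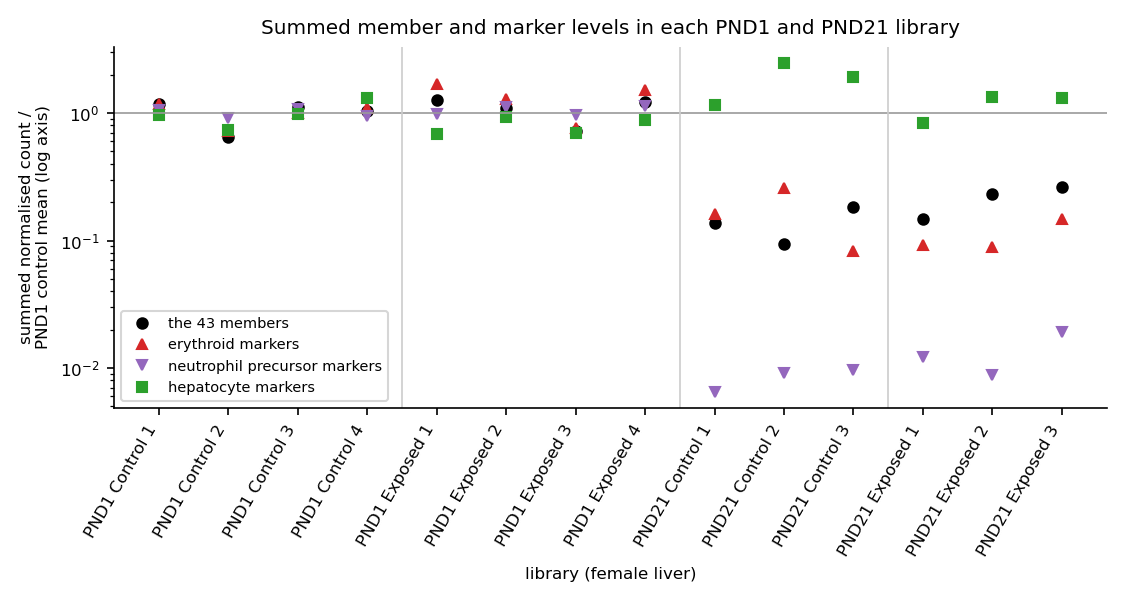
Summed normalised counts of the 43 members and of erythroid, neutrophil precursor and hepatocyte markers in each PND1 and PND21 library, each divided by its PND1 control mean (log axis). The member and erythroid sums fall together between PND1 and PND21, the neutrophil precursor sum falls further, the hepatocyte sum does not fall in controls, and PND1 Control 2 and Exposed 3 are the lowest libraries of their groups for the members and for erythroid markers.

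Exposed females differed between ages in the same direction. Between PND1 and PND21, 41 of 43 members fell and Ccnd1 rose, against 24.0% of all genes called lower and 22.9% called higher, and the median was -2.71 against 0.00 for all genes. Mybl2 stood at 1313, 1199, 1087 and 1206 normalised counts in PND1 exposed animals 1 to 4 and 66.4, 66.4 and 62.2 in PND21 exposed animals 1 to 3 (-4.18 ± 0.15, adjusted p = 6.83e-11). Mki67 stood at 15462, 13936, 8018 and 14050.2 at PND1 and 312, 1149.8 and 1763 at PND21, with PND21 Exposed 1 far below Exposed 2 and 3 (-3.86 ± 0.48, adjusted p = 2.33e-05). Top2a differed by -3.14, Mcm2 by -2.86 ± 0.28 (adjusted p = 1.42e-06) and Pcna by -2.07, all called. Nusap1 (-4.09 ± 0.36, adjusted p = 7.53e-07), Cdc6 (-3.82 ± 0.35, adjusted p = 8.12e-07) and Ccne1 (-3.85 ± 0.35, adjusted p = 8.45e-07) had the next lowest p values, followed by Mcm2, Kif11 (-3.30 ± 0.33), Rrm2 (-3.89 ± 0.43), E2f1 (-2.52 ± 0.30), Rrm1 (-2.40 ± 0.29) and Mcm7 (-1.78 ± 0.23). Ccnd1 rose by 1.48 ± 0.27 (adjusted p = 0.000369), from 441, 614, 611 and 639.5 to 1543, 1799 and 1452. Cdkn1a, at 821, 447, 424 and 1026 at PND1 and 1349, 878 and 913 at PND21, differed by 0.70 ± 0.38 and was not called (adjusted p = 0.145). The other lists followed, with 35 of 39 replication, 54 of 57 mitosis, 15 of 20 G1 and 9 of 18 inhibitor and p53 genes falling. The 1 gene of these lists that rose was Rbl2, a relative of the retinoblastoma protein (0.75). Erythroid markers fell in 19 of 19 (median -5.96). Adding the erythroid mean as a covariate, limma called 0 of 43 members, with 9 at an unadjusted p under 0.05 and a median of 1.76. For that fit too, the share of all genes at that p is not given here.

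The difference between the age change in exposed animals and that in controls was tested as an interaction. No member was called: limma gave 0 of 43, with 2 at an unadjusted p under 0.05, and voom gave 0, against 0.014% of all genes called and 9.07% at that unadjusted p. The member estimates leaned to a smaller fall in exposed animals, with 37 of 43 above 0 and a median of 0.63, against 49.8% of all genes above 0. Cdkn1a had the lowest p, at 1.56 ± 0.53 (unadjusted p = 0.0109, adjusted p = 0.422), followed by Kif20a, a motor of cytokinesis, at 1.16 ± 0.53 (adjusted p = 0.533). Bub1b (1.09 ± 0.58), Cenpf (1.27 ± 0.70), Bub1 (1.05 ± 0.64) and Foxm1 (0.70 ± 0.43) came next. Kinetochore and spindle members had a median of 0.80, fork and origin members 0.45 and transcription factors -0.25. Mki67 differed by 0.75 ± 0.68, Top2a by 0.80 ± 0.66, Mcm2 by 0.63 ± 0.40, Pcna by 0.13 ± 0.46, Ccnd1 by 0.43 ± 0.38 and Mybl2 by -0.29 ± 0.21, none called.

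**Figure D3:**
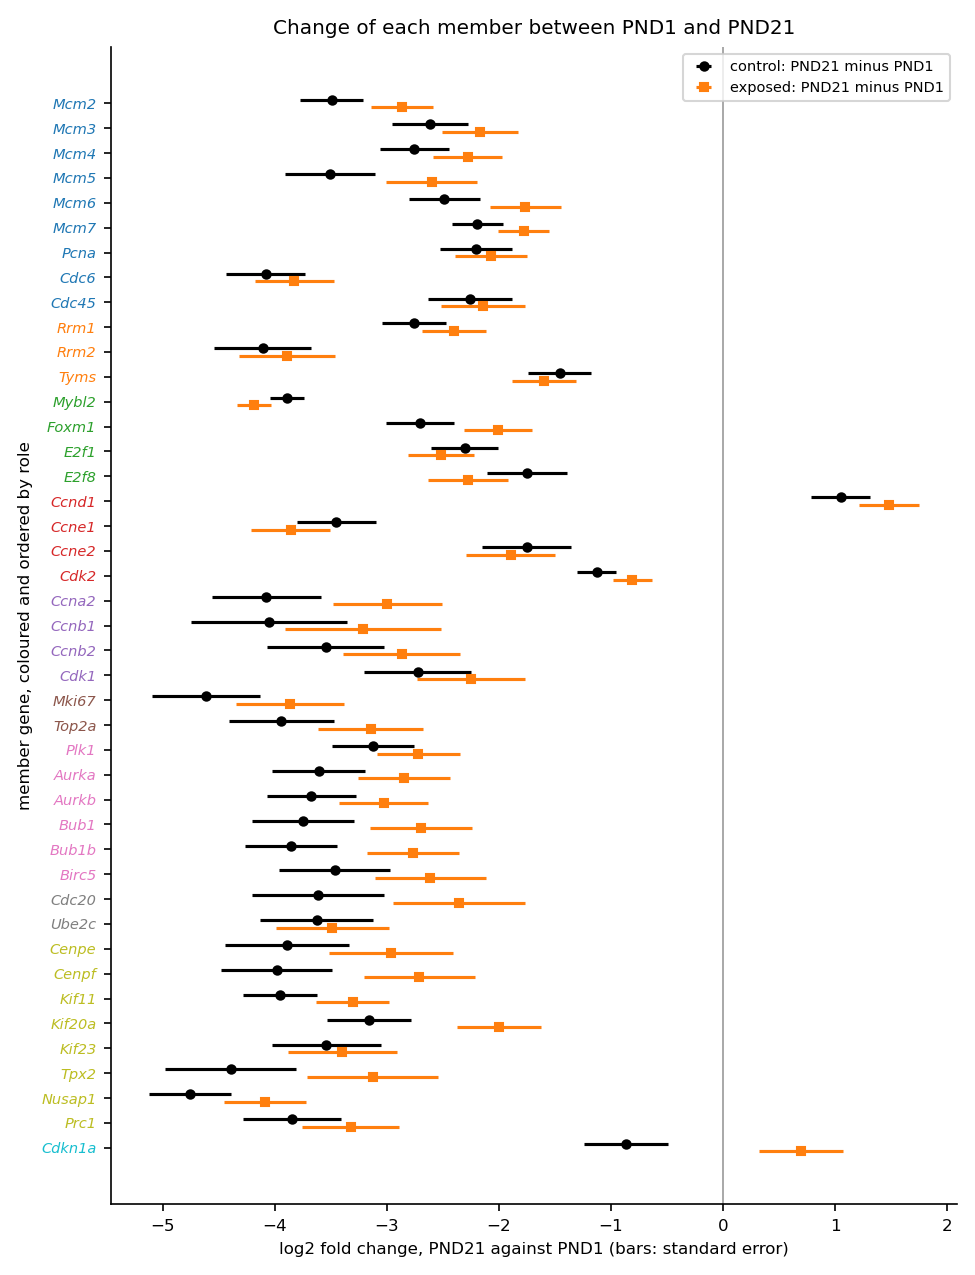
Difference between PND21 and PND1 for each of 43 members on the log2 scale (circles: controls; squares: exposed animals; bars: standard error), with gene names coloured by role. Of all members only Ccnd1 is right of 0 in both, Cdkn1a is left of 0 in controls and right of 0 in exposed animals, and the exposed square is right of the control circle for 37 members.

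At PND1 no member passed the threshold between exposed and control females. By limma 0 of 43 members were called and 2 had an unadjusted p under 0.05, and voom called 0, where 0.0% of all genes were called and 14.5% had that unadjusted p. The groups overlapped for all 43 members, where 2.94% of all genes were higher and 4.82% lower without overlap. The median was 0.11 against -0.01 for all genes, with 32 members above 0, against 49.2% of all genes. The sign of this median depended on 1 library: without Control 2 the median was -0.0488 with 17 members above 0, and without Exposed 3 it was 0.30 with 39. Cenpe, the kinetochore motor that brings chromosomes to the spindle equator, had 1122, 944, 1204 and 804 normalised counts in controls 1 to 4 and 1845, 1532, 984 and 1463 in exposed animals 1 to 4. Exposed 1, 2 and 4 lay above each control, Exposed 3 lay within them, and the difference was 0.50 ± 0.20 (adjusted p = 0.31). Mybl2, whose levels are given above, differed by 0.32 ± 0.14 (adjusted p = 0.331), with Control 1 above 3 of the 4 exposed libraries. Cenpf followed at 0.44 ± 0.20, Foxm1 at 0.33 ± 0.16 and Mki67 at 0.31 ± 0.25 (adjusted p = 0.353, 0.364 and 0.57).

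The signs at PND1 differed by role. All 8 kinetochore and spindle members and all 6 mitotic kinase and checkpoint members were above 0 (medians 0.20 and 0.10), while 6 of 9 origin and fork members were below 0 (median -0.15). Pcna stood at 1674, 1549.6, 885 and 1751 normalised counts in exposed animals 1 to 4 and differed by -0.26 ± 0.28, and Mcm2 stood at 1514, 1229.5, 899.8 and 1443 and differed by -0.12 ± 0.25. Top2a differed by 0.22 ± 0.19, Ccnd1 by 0.11 ± 0.17 and Cdkn1a by -0.33 ± 0.38. The other lists gave 0 calls by limma: replication genes had a median of 0.11, mitosis genes 0.17, G1 genes 0.09 and inhibitors and p53 targets 0.01, with 1, 4, 1 and 1 genes at an unadjusted p under 0.05. Cdca2 had the lowest p of the mitosis genes (0.53), Pold1, a subunit of DNA polymerase delta, of the replication genes (0.37), Cdk4 of the G1 genes (-0.34) and Ccng1, a p53 target, of the inhibitor and p53 genes (-0.49).

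Erythroid content moved with the members across PND1 libraries. Control 2 and Exposed 3, the lowest in the members, also had the lowest erythroid sums of their groups (243375 and 258306 normalised counts), where the controls ran from 243375 to 400230.0 and the exposed libraries from 258306 to 567366. All 19 tested erythroid markers were above 0 in exposed animals (median 0.39, Kel 0.76, Hbb-bs 0.17), and 10 of 11 hepatocyte markers were below 0 (median -0.28, Cps1 -1.14). After adding the erythroid mean as a covariate the members' median was -0.23, with 5 members above 0 and 0 called by limma (13 at an unadjusted p under 0.05). Without both Control 2 and Exposed 3 the median was 0.12, with 31 members above 0, 7 at an unadjusted p under 0.05 and 0 called. The shares of all genes at that p in these fits are not given here. The 14.5% above belongs to the fit without the covariate and with every PND1 library.

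At PND21 the members leaned higher in exposed females, in the mitosis genes in 2 of the 3 exposed animals, and none was called. Limma gave 0 of 43 called and 4 at an unadjusted p under 0.05, and voom gave 0 called, where 0.036% of all genes were called and 9.57% had that unadjusted p. The median was 0.57 against -0.01 for all genes, and 39 members were above 0, against 48.9% of all genes. The 2 members whose groups did not overlap were Cdkn1a and Cdk2, both higher, against 7.99% of all genes. Under scaling by read totals, which moves the median of all genes to 0.23, the members' median was 0.81, 0 were called and 12 had an unadjusted p under 0.05. The share of all genes at that p under this scaling is not given here, and the 9.57% belongs to the deposited scaling.

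The 22 members of mitosis separated the exposed animals from each other. In Exposed 2 and in Exposed 3 each of the 22 was above every control, and in Exposed 1 each of the 22 was the lowest of the 3 exposed libraries. The shares of all genes in these positions in single libraries were not determined, so these counts have no background beside them. Measured from the control mean, their medians were -0.35, 1.26 and 1.83 log2 in Exposed 1, 2 and 3. Mki67 had 414, 269.8 and 615 normalised counts in controls 1 to 3 and 312, 1149.8 and 1763 in exposed animals 1 to 3, so that Exposed 1 lay among the controls (1.07 ± 0.65, adjusted p = 0.605). Cenpf had 93.4, 34.6 and 83.1 in controls and 75.9, 287 and 450.0 in exposed animals (1.71 ± 0.68, adjusted p = 0.499). Kif20a had 45.2, 34.6 and 62.3 in controls and 48.5, 125 and 221 in exposed animals (1.25 ± 0.53, adjusted p = 0.514). In both genes Exposed 3 was highest and Exposed 1 lay within the controls. Ccnb1, the cyclin of mitotic entry, ran from 36.5, 26.6 and 60.9 in controls to 15.8, 108 and 292 in exposed animals, where Exposed 1 was below every control. Top2a (312, 77.1 and 242 in controls, 164, 499 and 599.6 in exposed animals) differed by 1.02 ± 0.66, Bub1b by 1.18 ± 0.54, Kif11 by 0.84 ± 0.43, Cdc20 by 1.50 ± 0.78 and Cenpe by 1.43 ± 0.77, none called.

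**Figure D4:**
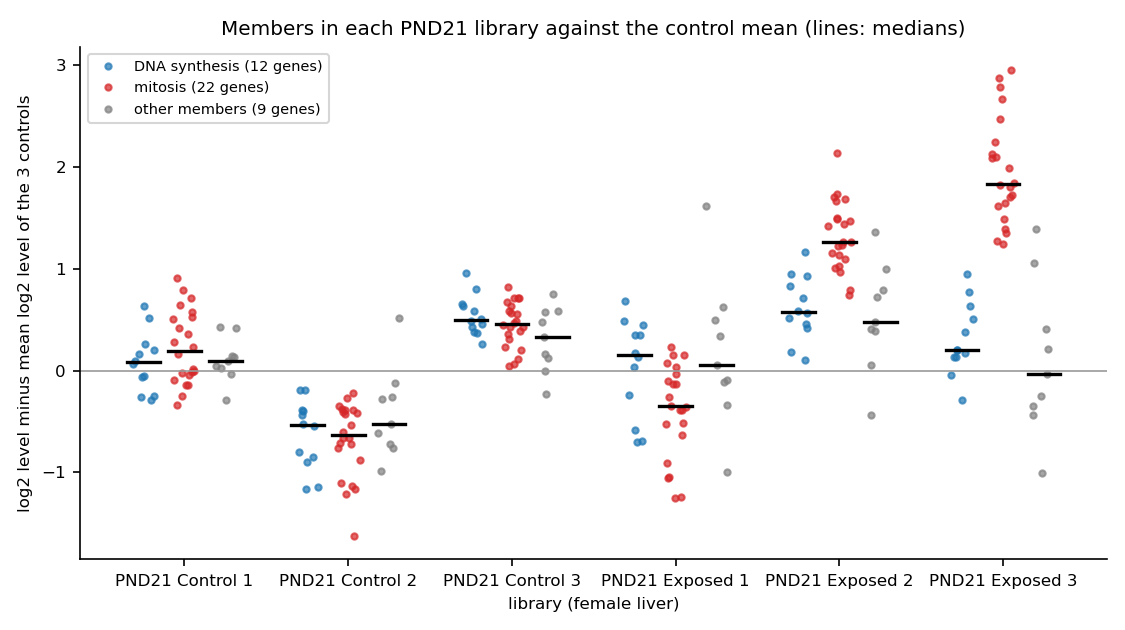
Each member in each PND21 female library as its log2 level minus the mean log2 level of the 3 controls, for 12 members of DNA synthesis, 22 of mitosis and 9 others (points: genes; lines: medians). The mitosis members lie at medians of -0.35, 1.26 and 1.83 in Exposed 1, 2 and 3, and the DNA synthesis members at 0.15, 0.57 and 0.20.

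The 12 members of DNA synthesis showed less of this spread, with medians from the control mean of 0.15, 0.57 and 0.20 log2 in Exposed 1, 2 and 3. Mcm2 had 115, 90.4 and 165 normalised counts in controls and 169, 213 and 138 in exposed animals (0.51 ± 0.29), with Exposed 3 within the controls. Pcna had 226, 418 and 403 in the exposed animals, all below Control 3, and differed by -0.13 ± 0.30. Mcm5 was the fork member of lowest p (0.93 ± 0.48, adjusted p = 0.549). Of the transcription factors, Foxm1 had 77.3, 33.2 and 72.0 in controls and 72.7, 148.6 and 150.8 in exposed animals (1.03 ± 0.43, adjusted p = 0.507), Mybl2 differed by 0.02 ± 0.28 and E2f8 by -0.40 ± 0.38. Mybl2 thus spanned 58.5 to 70.0 in controls and 62.2 to 66.4 in exposed animals, while Foxm1, which acts with it on mitotic genes, was above every control in Exposed 2 and 3.

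Cdkn1a (ENSMUSG00000023067, chr17:29090976-29100727, + strand, GENCODE vM21 on mm10) was the member of lowest p at PND21. It had 357, 627 and 374 normalised counts in controls 1 to 3 and 1349, 878 and 913 in exposed animals 1 to 3. Each exposed animal was above each control, and the highest was Exposed 1, the exposed animal lowest in mitotic genes. Exposed 3, however, was above Exposed 2 both in Cdkn1a and in the median of the mitosis members. A relation between Cdkn1a and the mitotic genes was not tested. The difference was 1.23 ± 0.27, a factor of 2.34, with an unadjusted p of 0.00128 from limma and an adjusted p of 0.341. Cdk2 had 556, 415 and 548 in controls and 776, 701 and 580.4 in exposed animals, again highest in Exposed 1 (0.44 ± 0.19, adjusted p = 0.516). Ccnd1 had 1069, 662 and 1839 in controls and 1543, 1799 and 1452 in exposed animals and differed by 0.54 ± 0.33, with its highest value in a control.

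PND21 Control 2 was the lowest control in 40 of 43 members, as Exposed 1 was in the mitosis members of its group. The members' median was 0.36 without Control 2 and 1.14 without Exposed 1, the lowest and highest of the 6 values that leave out 1 library. In the authors' deposited table for PND21, 4 of 43 members had an adjusted p under 0.05, all higher in exposed animals: Cenpf (log2 fold change 1.95, adjusted p = 0.00435), Kif20a (1.47, 0.0179), Bub1b (1.43, 0.0404) and Cenpe (1.63, 0.0458). Over all 14235 genes with an adjusted p, the authors' deposited table has 237 higher (1.66%) and 209 lower at PND21, while Foxm1 (0.0535) and Cdkn1a (0.0713) had the next adjusted p values there. At PND1, none of the 32 members with an adjusted p in the authors' deposited table passed the threshold, where 1.06% of all 6790 genes with one did (20 higher and 52 lower).

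Other lists at PND21 gave 0 calls by limma. The 57 other mitosis genes had a median of 0.74, with 52 above 0 and 7 at an unadjusted p under 0.05 (Stmn1 1.26, Kif2c 1.51), and the 39 other replication genes 0.25, with 34 above 0 and 2 at that p (Mcm10 -0.78). The 20 G1 genes had a median of -0.14 (Myc -1.98, unadjusted p = 0.00688) and the 18 inhibitors and p53 targets -0.06 (Gadd45b 0.98), with 4 and 2 at that p. Markers of other cells also moved: all 11 hepatocyte markers were below 0 (median -0.52, Alb -0.70), 7 of 12 stellate and matrix markers were above every control (median 0.63, Col1a1 1.52, Eln 1.84), and 7 of 7 B-cell markers were above 0 (median 0.76, Cd79a 0.67). The stellate and matrix sum was 18256 to 23034 normalised counts in controls and 22341 to 43934 in exposed animals, highest in Exposed 3. Exposed 3 was also above every control in the cholangiocyte sum (4088 against 1268 to 2159) and the exocrine pancreas sum (2096 against 613 to 967). So it was in the neutrophil precursor, megakaryocyte, Kupffer, mesothelial and B-cell sums and in the share of mitochondrial RNA (23.4% against 12.1 to 18.3%). Its endothelial, erythroid, hepatocyte and nuclear RNA sums lay within the controls. The erythroid sum was 27980.0 to 86292 in controls and 30099 to 49688 in exposed animals, and the hepatocyte sum 2.42 to 5.15 M and 1.74 to 2.80 M. The part of these markers, and of the greater depth of the exposed libraries, in the member values was not tested.

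At PND42 exposure in females went with changes in 4 of the 29 members: Pcna, Cdkn1a and E2f8 fell and Cdk2 rose. These are 13.8% of the members, below the 40.2% of all genes called in this comparison (18.9% of all genes higher and 21.4% lower). The members' median was -0.07 against 0.00 for all genes. In each of the 4 the groups did not overlap, as in 22.3% of all genes higher and 23.5% lower.

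Pcna (ENSMUSG00000027342, chr2:132249162-132253314, - strand) had 327, 590.5, 307 and 433 normalised counts in female controls 2, 3, 4 and the unnumbered one, and 165, 152.5, 96.4 and 189 in exposed females 1 to 4. Each exposed female was below each control, by a factor of 2.73 between the group means on the log scale (-1.45 ± 0.24, adjusted p = 0.000237). Cdk2 (ENSMUSG00000025358, chr10:128697939-128705031, - strand), the kinase of cyclins E and A, had 432, 505, 495 and 397 in control females and 784, 797, 710.03 and 688 in exposed females, with each exposed female above each control (0.71 ± 0.22, adjusted p = 0.0159). Pcna was called in 16 of 16 alternative settings and Cdk2 in 16 of 16. Leaving out the unnumbered control is counted there both as a setting of its own and among the left-out libraries. None of the other 7 helicase and fork members was called, and their differences ran from -0.75 for Mcm3 (adjusted p = 0.156) to 0.24 for Mcm7.

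Cdkn1a had 31.1, 80.4, 114 and 110.0 normalised counts in female controls and 21.4, 21.6, 15.1 and 27.6 in exposed females, with control 2 just above the highest exposed female (-1.79 ± 0.64, adjusted p = 0.0335). The call was lost with voom (adjusted p = 0.0676) and without the unnumbered control (0.0844), control 3 (0.067), control 4 (0.0842), Exposed 1 (0.059), Exposed 2 (0.0613) or Exposed 3 (0.0841). E2f8 (ENSMUSG00000046179, chr7:48866429-48881596, - strand) had 319.7, 386, 222 and 233 in control females and 119, 144.5, 127 and 213 in exposed females, with Exposed 4 close to the lowest controls (-0.94 ± 0.34, adjusted p = 0.0346). Among the scalings and the left-out libraries, its call was lost under scaling by totals (adjusted p = 0.0587) and without control 2 (0.079), control 3 (0.106), Exposed 1 (0.0882), Exposed 2 (0.0662) or Exposed 3 (0.084). The sign of both genes was the same in every one of these settings.

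**Figure D5:**
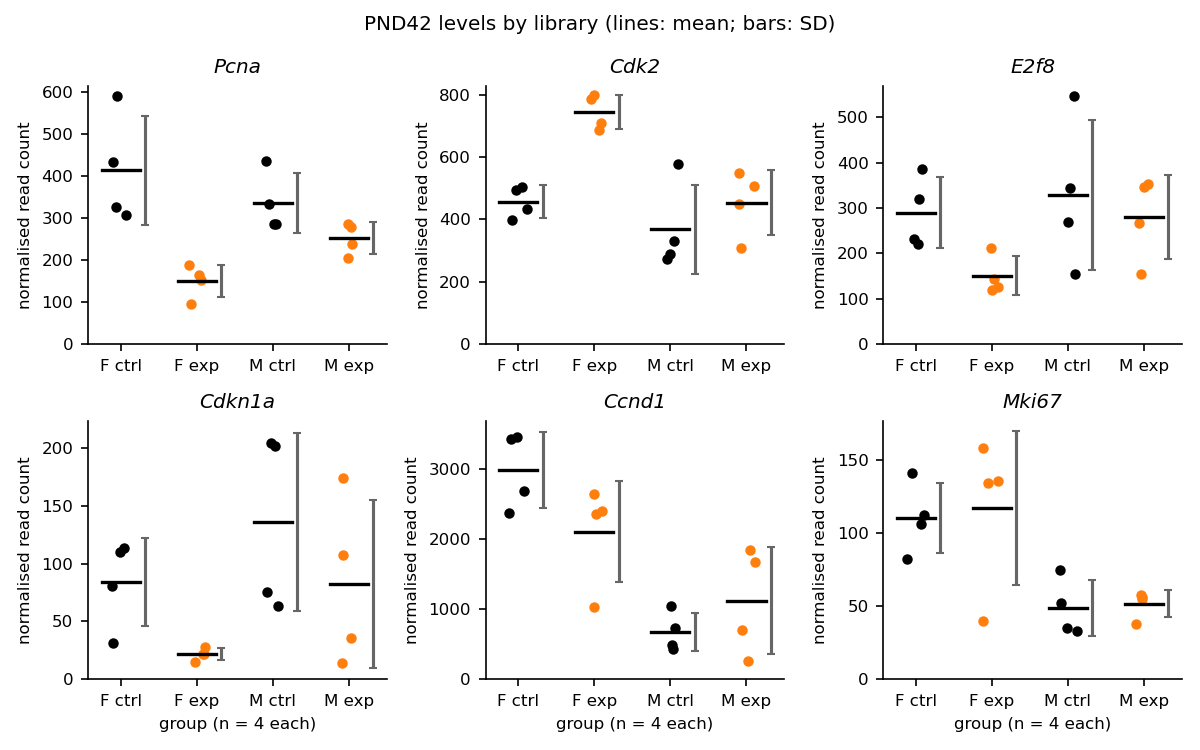
Normalised read count of Pcna, Cdk2, E2f8, Cdkn1a, Ccnd1 and Mki67 in each PND42 library by group, F for females and M for males (points: libraries; lines: mean; bars: SD; n = 4 each). Exposed females lie apart from control females in the first 4 genes, exposed and control males overlap in all 6, and Ccnd1 and Mki67 are higher in female than in male controls.

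The other 25 members were not called. Mcm2 had 45.3, 242, 61.6 and 83.4 normalised counts in female controls and 149.6, 76.6, 48.2 and 99.3 in exposed females, and Top2a 39.6, 123, 43.5 and 66.9 in control females and 78.0, 40.7, 17.3 and 59.1 in exposed females, with overlapping groups in both. Mki67 had 82.0, 141, 112 and 106 normalised counts in female controls and 158.1, 134, 39.6 and 136 in exposed females, where Exposed 3 was far below the rest (-0.07 ± 0.39, adjusted p = 0.906). Exposed 3 was the lowest exposed female in 19 of 29 members. Mcm2 differed by -0.01 ± 0.51, Top2a by -0.52 ± 0.57 and Mybl2 by 0.82 ± 0.66. Ccnd1 had 2368, 2686, 3425 and 3449 in control females and 2637, 2361, 1031 and 2398 in exposed females, again lowest in Exposed 3, and differed by -0.57 ± 0.51 (adjusted p = 0.398). Ccne2 differed by 0.56 ± 0.37, Cdk1 by -0.55 ± 0.44, Birc5, the survivin subunit of the chromosomal passenger complex, by 0.48 ± 0.39 and Mcm6 by -0.52 ± 0.46.

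Calls in the other lists went both ways, where 18.9% of all genes were called higher and 21.4% lower. A count near those shares does not set a list apart. Of 35 replication genes 3 rose (Prim2 0.97, Pola1 1.03, Mcm10 0.91) and 2 fell (Dut -0.80, Gins4 -0.75). Of 32 mitosis genes 2 rose (Smc4 1.02, Tacc3 0.79) and 1 fell (Stmn1 -1.75). Of 20 G1 genes 4 rose (Lin52 0.90, Cdk6 0.95, Tfdp2 0.56, Ccnd3 0.41) and 2 fell, Cdk4, the kinase of cyclin D (-0.78, adjusted p = 0.000633), and Cdc25a (-0.67). Of 18 inhibitors and p53 targets 2 rose, Mdm2, which degrades p53 (0.78), and Sesn1 (0.63), and 5 fell, Ccng1 (-0.86), Zmat3 (-0.93), Cdkn1b, the kinase inhibitor p27 (-0.70), Cdkn2c, the inhibitor p18 (-1.55), and Btg2 (-1.28). The called p53 targets had no common direction: Cdkn1a, Ccng1, Zmat3 and Btg2 fell, while Mdm2 and Sesn1 rose.

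RNA composition differed between the female groups at PND42. Mitochondrial RNA made up 5.25 to 12.8% of normalised counts in control females and 22.2 to 35.5% in exposed females, and the summed nuclear RNAs Malat1 and Neat1 23613 to 50022 and 105107 to 126037 normalised counts. All 7 mitochondrial genes (mt-Nd1 1.61) and both nuclear RNAs (Malat1 1.55) rose, and 10 of 11 hepatocyte (Alb -1.08), 4 of 9 Kupffer (C1qa -1.39), 3 of 12 stellate and matrix (Lum -1.90) and 2 of 5 cholangiocyte markers (Spp1 -1.90) fell. Of 10 endothelial markers 3 rose and 2 fell (Egfl7 1.84, Clec4g -0.91), and of 8 B-cell markers 2 rose (Ebf1 2.85, Pax5 1.46). Over all genes 18.9% were called higher and 21.4% lower, so marker counts near those shares do not show a shift of that cell type. The hepatocyte sum was 3.22 to 4.45 M normalised counts in control and 1.37 to 2.47 M in exposed females, and the Kupffer sum 6872 to 11522 and 4603 to 8081. The mitochondrial and nuclear RNA levels separate the same 4 against 4 libraries as exposure does, so that they and exposure cannot be told apart for Pcna, Cdk2, Cdkn1a and E2f8.

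In PND42 males no member passed the threshold between exposed and control animals. Limma called 0 of 29 and 2 had an unadjusted p under 0.05, and voom called 0, where 0.0% of all genes were called and 7.12% had that unadjusted p. The median was 0.04 against -0.03, and the groups overlapped for all 29, where 0.894% of all genes were higher and 0.833% lower without overlap. Pcna had 334, 286, 286 and 437 normalised counts in male controls 1, a, b and c and 205, 239, 287 and 279 in exposed males 1 to 4 (-0.40 ± 0.24). Cdk2 had 272, 579, 290.0 and 331 in control males and 549, 448, 309.7 and 508 in exposed males (0.34 ± 0.22), with the highest value in control a. Cdkn1a ranged widely in both groups, at 202, 63.5, 204 and 75.2 in control males and 174, 107, 35.3 and 13.8 in exposed males (-1.08 ± 0.64). Cenpe at 1.52 ± 0.67 and Cdk1 at -0.94 ± 0.44 were the 2 at an unadjusted p under 0.05 (adjusted p = 0.622 for each). The Cenpe difference rests on low counts, 2.78 to 20.5 in control males and 14.7 to 36.2 in exposed males. Mcm2 differed by 0.45 ± 0.51, Mki67 by 0.14 ± 0.39, Top2a by 0.37 ± 0.57, Mybl2 by -0.60 ± 0.66 and Ccnd1 by 0.45 ± 0.51. Mki67 had 57.3, 37.7, 54.9 and 56.1 in exposed males, all within the range of the male controls, and Ccnd1 1673, 698, 1845 and 254, from below to above its controls. The other lists gave 0 calls by limma, with 5 of 35 replication, 1 of 32 mitosis, 1 of 20 G1 and 0 of 18 inhibitor genes at an unadjusted p under 0.05. Of 8 B-cell markers 6 were at that p (Cd79a 1.79, Ms4a1 2.16), with sums of 155.1 to 329 in controls and 474 to 575 in exposed males, and their part in the member values was not tested.

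Whether exposure acted differently in males and females was tested as an interaction, male effect minus female effect. Limma called 0 of 29 members, with 2 at an unadjusted p under 0.05, and voom called 0, where 7.91% of all genes were called and 25.2% had that unadjusted p. Pcna was nearest, at 1.05 ± 0.34 (adjusted p = 0.0682), and was called without male control c (1.18, adjusted p = 0.0308). Mcm6 followed at 1.40 ± 0.66 (adjusted p = 0.193). The fall of Pcna, Cdkn1a and E2f8 and the rise of Cdk2 in females were not shown to differ between the sexes: their interactions were 1.05, 0.71 ± 0.90, 0.78 ± 0.48 and -0.37 ± 0.31. Mcm2 differed by 0.47 ± 0.71, Mki67 by 0.21 ± 0.55, Top2a by 0.89 ± 0.81, Mybl2 by -1.43 ± 0.94 and Ccnd1 by 1.02 ± 0.73. In the other lists 1 gene was called, Lin52, a MuvB subunit (-0.90, adjusted p = 0.0408).

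Between control males and control females at PND42, 1 of 29 members was called. Ccnd1 (ENSMUSG00000070348, chr7:144929931-144939925, - strand) had 2368, 2686, 3425 and 3449 normalised counts in female controls and 724, 488, 433 and 1039.8 in male controls, lower in males by a factor of 4.66 (-2.22 ± 0.51, adjusted p = 0.0199). Each male control was below each female control. The call was lost without the unnumbered female control (-2.14, adjusted p = 0.0614) and without male control b (-2.04, 0.0671). The share of members called, 3.45%, compares with 6.93% of all genes, 2.35% of all genes being lower in males.

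Of the 29 members, 9 (31.0%) were higher in control males by sign, against 48.4% of all genes. By limma 7 (24.1%) had an unadjusted p under 0.05, against 23.0% of all genes. Mki67 had 82.0, 141, 112 and 106 normalised counts in female and 51.7, 74.3, 33.1 and 34.8 in male controls, which did not overlap (-1.22 ± 0.39, adjusted p = 0.0641). It was called without male control a (-1.45, adjusted p = 0.023). Ccnd1, Mki67 and Mcm3 were the 3 members whose groups did not overlap (10.3%), against 5.64% of all genes lower. The 8 origin and fork members had a median of -1.01 (Mcm2 -1.32 ± 0.51, Mcm6 -1.22 ± 0.46, Mcm3 -1.03 ± 0.41), and all members -0.38 against -0.02 for all genes. In the same role Pcna was at -0.28 ± 0.24, Mcm7 at -0.25 and Cdc45, which activates the helicase, at 0.13. Female control 3 was the highest female control in 9 of the 11 members of the helicase, the fork and nucleotide supply. With 1 library left out, the Mcm2 difference ran from -1.63 to -0.83. Cdkn1a was at 0.65 ± 0.64, Top2a at -0.77 ± 0.57 and Mybl2 at -0.32 ± 0.66. Scaled by totals, which moves the median of all genes to -0.38 and their calls from 600 higher and 307 lower to 235 and 1875, 6 members were called lower, with a median of -0.74. In the other lists, Timeless, of the fork protection complex, was lower in males (-1.17), and Smc4, a condensin subunit (0.67), Lin52 (0.67), Ccnd3 (0.56) and Bax (0.93) were higher. Of 9 Kupffer cell markers 6 were lower in males (Clec4f -0.84), with sums of 6872 to 11522 in female and 3849.8 to 5813 in male controls, and 5 of 7 mitochondrial genes were higher (mt-Nd1 1.35). Their part in the member values was not tested.

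Across ages, the 27 members listed in every table other than Cdkn1a and Ccnd1 made up 0.147 to 0.233% of normalised counts in PND1 controls, 0.0119 to 0.0229% in PND21 controls, 0.00893 to 0.0204% in PND42 female controls and 0.00702 to 0.00923% in PND42 male controls. The tables of PND42 and of the earlier ages were scaled apart, so no test was made between them. The PND21 and PND42 female ranges overlap, and the male range lies below that of PND21.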

How the data were processed

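Single-end RNA-seq reads of 30 liver libraries were, per the submitters' processing notes, checked with FastQC, aligned to mm10 with STAR and counted per gene with featureCounts. For these tools, versions and the strand setting are not given in the sources used here. Per the file headers and values, the authors deposited log2 values. These were found to be log2 of (read count divided by a size factor, plus 1). The size factor of each library was the one that made its low values whole reads. With it, 100.0% of the recovered reads checked were whole within 0.1, the highest counts being left out of this check. The deposited tables also hold the authors' mean normalised signal per gene, a test score and p-values of exposure, of which only fold changes and adjusted p-values of members are quoted. No source used here names the tool behind them.

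Columns were matched to samples by name (0 columns of per-sample values were not used). Levels were compared with limma 3.58.1 in R 4.3.3, with a mean-variance trend and robust moderation, 1 fit for PND1 with PND21 for changes with age and 1 fit per table for exposure, over genes with at least 10 normalised counts in as many libraries as the smallest group. All members listed in a table passed this filter, and the lowest mean of a listed gene was 10.5 normalised counts in the PND1 and PND21 tables and 12.1 in the PND42 table. P-values were Benjamini-Hochberg adjusted over all genes tested, with a threshold of 0.05. The tests were checked on simulated data. Alternatives were no filter, a pseudocount of 5, scaling by totals or upper quartile, voom on the recovered reads, the replicate number as a block, the mean erythroid level as a covariate, other fit membership, leaving out the unnumbered PND42 female control, leaving out each library in turn and, added after seeing the data, leaving out PND1 Control 2 and Exposed 3 together. Same-numbered libraries correlated at -0.08 to 0.23 in their deviations from group means, so the numbers were not taken to pair them.

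Members and the lists of replication, mitosis, G1, inhibitor and p53, blood cell, liver cell, mitochondrial and nuclear RNA genes were chosen with earlier results of these data known. Mki67, Top2a, Pcna, Mcm2, Ccnd1, Mybl2 and Cdkn1a are given in every comparison, with up to 10 members and 4 genes per list of lowest p, and from each marker list its opening gene and up to 2 of lowest p. Other genes of called groups of 5 or fewer (Bax, Mcm10, Ccnd3, Cdc25a, Cdkn2c, Btg2, Sesn1, Rbl2, Upk3b), the erythroid genes Hba-a1, Klf1, Gata1 and Rhag and the other members whose values are printed were named after their values were seen. The result of 1 further gene is not reported here. Positions are from GENCODE vM21 on mm10 and promoter sequences from RefSeq.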

Additional observations from a re-analysis of the deposited data

Results flagged for a closer look

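The spread of 9 members was examined in 54 sets of 4 libraries, and 6 had a lowest library separated from the rest by more than Dixon's critical value for 4 values, where chance alone gives about 1 in 20. At PND1, Mki67 in Exposed 3 (8018.39 normalised counts) and Pcna in Control 2 (980.858) were such values, in the same 2 libraries that were lowest in nearly all members and in the erythroid sum of their groups. Ccnd1, the cyclin that rose with age, was low in PND1 Exposed 1 (440.59). At PND42, Exposed 3 of the females was low in both Mki67 (39.5663) and Ccnd1 (1030.88), and Exposed 2 of the males in Mki67 (37.7009).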

How the results depend on the processing

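The number of libraries, 3 or 4 a group, limits the precision of these comparisons. Of results on the count of members called, 140 settings gave a count within 1.5 times the one reported, or 0 where 0 was reported, and 13 did not. Where 0 was reported from groups this small, a further 0 says little. Leaving out the unnumbered PND42 female control is counted both as a setting of its own and among the left-out libraries. The exceptions follow, and the cause was not tested. With the erythroid mean as a covariate 0 members were called between PND1 and PND21 in controls and in exposed animals. In females at PND42, 2 to 4 members were called when 1 library was left out, with 2 without control 3, Exposed 1, Exposed 2 or Exposed 3. For the interaction of sex and exposure 0 to 1 were called, the 1 being Pcna without male control c. Between male and female controls, 6 were called under scaling by totals, 0 without the unnumbered female control, and 0 to 4 when 1 library was left out, with 2 without female control 2, 4 without male control a and 0 without male control b.

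Single members changed sign as follows, none of them called in the changed direction. The age fits with the erythroid covariate cannot settle a sign, because erythroid level and age change together. Under the erythroid covariate the age difference in controls was 0.25 for Top2a, 2.53 for Pcna, 2.08 for Mki67, -0.28 for Ccnd1 and 0.77 for Cdkn1a, that in exposed animals 1.19 for Top2a, 2.82 for Pcna and 3.06 for Mki67, and the exposure difference at PND1 -0.0747 for Top2a and -0.0937 for Mki67. Scaling by totals gave 0.11 for Pcna in exposed PND21 animals and 0.0366 for Mcm2 in exposed PND42 females, where the upper quartile gave 0.0211. With 1 library left out, the exposure difference ran from -0.38 to 0.0353 for Mcm2 and -0.0009 to 0.24 for Ccnd1 at PND1, -0.0394 to 0.0885 for Mybl2 and -0.28 to 0.16 for Pcna at PND21, -0.32 to 0.48 for Mcm2 and -0.27 to 0.39 for Mki67 in PND42 females, and -0.0910 to 0.74 for Top2a and -0.0113 to 0.37 for Mki67 in PND42 males. The interaction ran from -0.0240 to 0.77 for Mcm2 and -0.25 to 0.44 for Mki67 with sex, and from -0.0931 to 0.42 for Pcna with age.

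With the replicate number as a block, E2f8 in PND42 females was at -0.93 (limma adjusted p = 0.0612), so that 3 members were called there, and Cdkn1a in exposed animals between PND1 and PND21 was at 0.97 (adjusted p = 0.0181). No paired analysis was possible because the columns share fewer than 2 numbers for PND42 males, for male against female controls and for the interaction of sex and exposure.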
